A study of Homo sapiens with 6 samples.

Results

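Immediate early genes are transcribed within minutes of a growth or stress signal, without new protein synthesis, and the dual-specificity phosphatases (DUSP) and Sprouty proteins are among the feedback brakes that such signals induce. The 52 genes described here were taken by symbol from a table of 56832 gene symbols. They include all DUSP genes with a plain number, EGR1 to EGR4, SPRY1 to SPRY4, the FOS and JUN families and the NR4A receptors. The rest are other early genes such as MYC, SRF, IER2, ZFP36, CYR61 and CTGF, with SPRED1 and SPRED2. RNA was measured in HEK293T, a human embryonic kidney line that expresses the SV40 large T antigen, in 3 wild-type libraries and in 3 libraries labelled as a SMARCA3 knockout, SMARCA3 being another name of HLTF, a DNA translocase and ubiquitin ligase. Both groups were grown in the same serum-containing medium with no stimulus named, and the labels give neither the number of knockout clones nor separate cultures, so p-values measure the spread between these libraries, which may be technical. The comparison asks which of these mRNAs differ between knockout and wild-type cells, and in bulk RNA fewer expressing cells and less RNA per cell cannot be told apart.

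In the ERK pathway, receptors activate RAS, RAF and MEK in turn, and active ERK phosphorylates transcription factors that bind with SRF at the promoters of genes such as EGR1 and FOS. FOS and JUN proteins pair to form AP-1. MAP kinase phosphatases of the DUSP family remove both phosphates from the activation loop of ERK, JNK or p38, while Sprouty and SPRED proteins act further up, between receptor and RAF.

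Total counts ran from 33125811 to 41593655 per library, each knockout library being shallower than each wild-type library, and 3 counts in a library correspond to 0.0721 to 0.0906 counts per 1000000 (CPM). Values by library are given in the order of replicates 1 to 3. HLTF mRNA measured 191 to 215 CPM in the wild-type and 140 to 149 CPM in the knockout libraries (edgeR log2 fold change -0.48, SE 0.05, adjusted p = 4.65e-05, exact permutation p = 0.1, the smallest that 3 against 3 libraries allow). The transcript was thus lower but present, beside a median log2 fold change of -0.50 in its 40 nearest expressed genes. Of the kidney lineage markers checked, PAX2, LHX1, EYA1, SALL1, SIX2, WT1 and GATA3 had enough counts to test, while PAX8 did not. The 7 epithelial markers summed to 41.6 to 46.4 CPM in wild-type and 21.9 to 23.2 CPM in knockout libraries, most of it KRT18 (30.7 ± 2.62 and 13.8 ± 0.539 CPM, SD, n = 3). KRT18, KRT8, CDH1 and EPCAM were called lower, CLDN4 was not called at 0.922 ± 0.185 and 1.38 ± 0.235 CPM, ESRP1 had at most 3 counts in a library and KRT19 had 0 in all. The fibroblast, leukocyte and endothelial lists stayed between 0.299 and 9.26 CPM in sum. The part of the lower epithelial markers in the results below was not tested.

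Most of the immediate early genes and phosphatases differed little between the groups, and 2 phosphatases stood apart. DUSP2 fell to a few counts per knockout library and DUSP23 rose from a very low level, whereas the other 12 called members had log2 fold changes of 0.19 to 0.81 in size. Of the 46 members with enough counts to test, 14 had an adjusted p under 0.05, 6 higher (DUSP23, DUSP18, FOSB, FOSL2, MYC and DUSP22) and 8 lower (DUSP2, SPRY1, DUSP15, ZFP36, CYR61, DUSP19, DUSP14 and DUSP1). That share, 30.4%, lies near the 31.8% called among all 18061 genes tested, and so do the shares by direction, 13% higher against 14% and 17.4% lower against 17.7%. Among the members 4.35% were called with a log2 fold change of 1 or more in either direction, and among all genes 5.09%. The median log2 fold change was 0.00 over the members and 0.00 over all genes, and the median size was 0.19 and 0.18. CPM ranges of the groups did not overlap for 18 members, 39.1%, against 45.6% of all genes. By these counts the pooled members changed about as often as all tested genes, many of which are lowly expressed. Limited to those reaching 1 CPM in wild-type or knockout, 34.1% of 41 members and 36.1% of genes were called. With a limit of 5 CPM the shares were 31.2% of 32 members and 37.8% of genes. The pooled share joined 40% of the 20 tested DUSP genes and 23.1% of the 26 other tested members. Whether these shares differ was not tested.

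**Figure D1:**
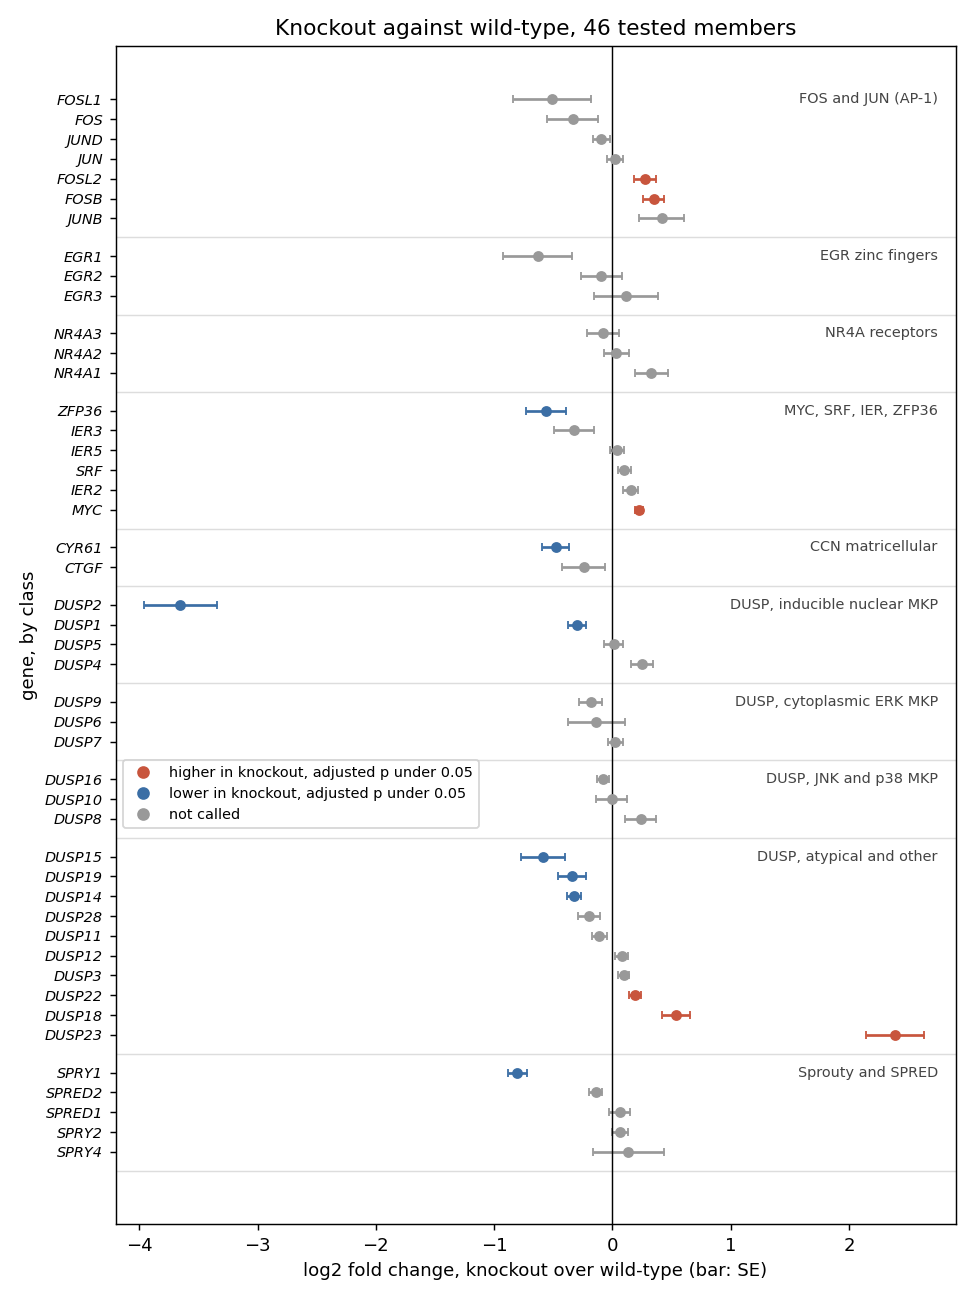
Log2 fold change (x axis, knockout over wild-type, with the SE of the edgeR fit as bars) of the 46 tested members, grouped by class on the y axis; red is called higher, blue called lower and grey not called. Most points lie within 0.81 of 0, with DUSP2 at -3.65 and DUSP23 at 2.39 far outside.

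The 6 members without enough counts to test were DUSP13, DUSP21, DUSP26, DUSP27, EGR4 and SPRY3, with totals of 0 to 20 counts over all 6 libraries, and DUSP21, DUSP27 and SPRY3 had 0. Among the tested members, levels per kilobase of exon spanned a wide range. MYC was highest with 71.2 ± 0.658 CPM per kb in wild-type (SD, n = 3), followed by JUN with 34.2 ± 1.90, DUSP3 with 24.5 ± 0.709, SRF with 22.9 ± 1.48 and DUSP12 with 21.9 ± 0.536. DUSP3 exceeded SRF in each wild-type library (24.0, 24.2 and 25.3 against 21.7, 22.6 and 24.6 CPM per kb). SRF and DUSP12 changed order between wild-type libraries. Whether these levels differ was not tested. The lowest were SPRY4 with 0.116 ± 0.0280, EGR3 with 0.182 ± 0.0577 and DUSP6 with 0.191 ± 0.0281 CPM per kb. DUSP6 and SPRY4, both known as sensitive readouts of ERK activity, were thus scarce in these cells. The 5 highest members kept their order in the knockout, while DUSP2 moved from rank 31 to rank 46 and DUSP23 from rank 40 to rank 25.

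**Figure D2:**
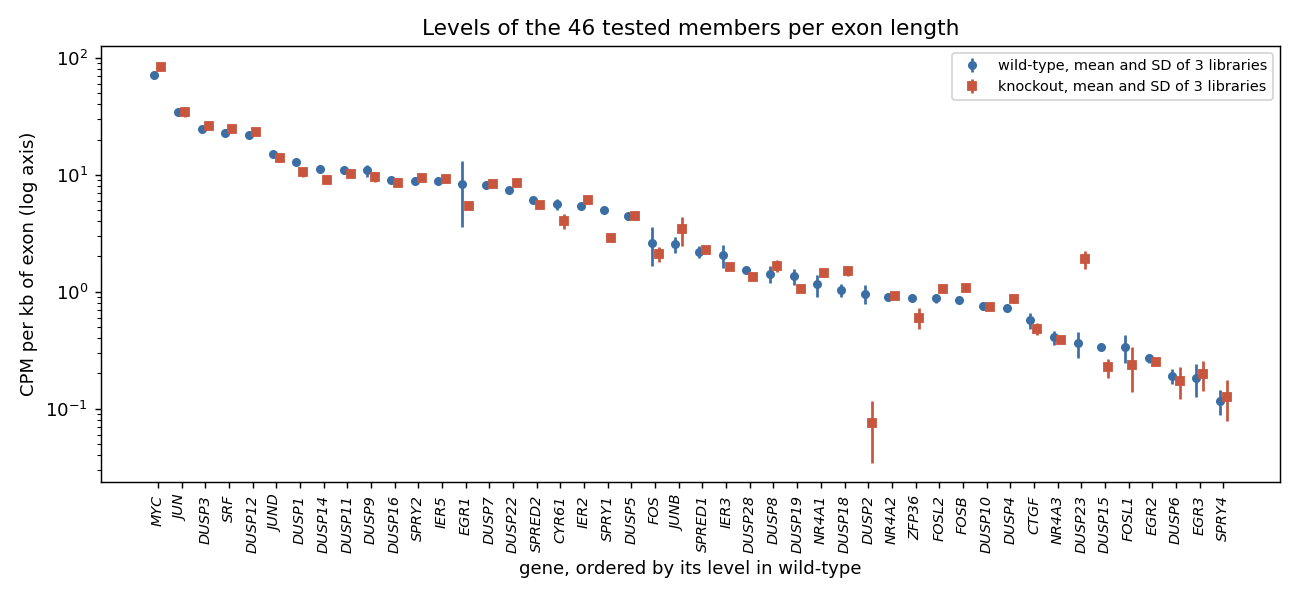
CPM per kilobase of exon (log y axis) of the 46 tested members, ordered on the x axis by their wild-type level, as mean and SD of 3 libraries for wild-type (blue) and knockout (red). The order runs from MYC at 71.2 to SPRY4 at 0.116, and DUSP2 and DUSP23 depart most from their wild-type level.

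DUSP2 (PAC-1), a nuclear MAP kinase phosphatase that is itself an immediate early gene, is encoded on the minus strand of chromosome 2 (hg38, 96143166 to 96145440). Wild-type libraries gave 63, 72 and 84 counts of DUSP2 and knockout libraries 8, 3 and 4, or 1.52, 1.85 and 2.20 CPM against 0.233, 0.0815 and 0.121 CPM. Every knockout library was below every wild-type library. The log2 fold change was -3.65 (SE 0.31, adjusted p = 8.87e-06), and the depth-scaled ratio of summed counts was 12.8, with a 95% exact interval of 7.62 to 23.3 that covers counting error only. The gene is lowly expressed even in wild-type cells, and its call held in all 16 alternatives (adjusted p of up to 0.000367). The median log2 fold change of its 40 nearest expressed genes was 0.03.

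DUSP23 (VHZ), a small atypical phosphatase, lies on chromosome 1 between 159780932 and 159782543 and had the largest rise among the called members. Wild-type libraries gave 9, 12 and 14 counts of DUSP23 and knockout libraries 47, 53 and 62, or 0.217, 0.308 and 0.367 CPM against 1.37, 1.44 and 1.88 CPM, with no overlap. The log2 fold change was 2.39 (SE 0.24, adjusted p = 3.52e-05), a ratio of summed counts of 5.26 (95% exact interval 3.63 to 7.82), beside a neighbour median of -0.06. This call too held in all 16 alternatives, with adjusted p-values of up to 0.000400.

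The promoters of these genes are shown because they carry the largest changes, with that of DUSP1, whose product belongs to the same nuclear class as DUSP2, for comparison. Each window runs from 250 bases before to 50 bases after a RefSeq transcription start (GRCh38.p14), and 41 of the 52 members had one or more such windows, 57 in all. DUSP2 is at chr2:96145391-96145690 (minus strand), DUSP23 at chr1:159780712-159781011 (plus strand) and DUSP1 at chr5:172771146-172771445 (minus strand). Capitals mark matches on either strand to the GC box GGGCGG, the cAMP response element TGACGTCA and the TATA box TATAAA.
DUSP2: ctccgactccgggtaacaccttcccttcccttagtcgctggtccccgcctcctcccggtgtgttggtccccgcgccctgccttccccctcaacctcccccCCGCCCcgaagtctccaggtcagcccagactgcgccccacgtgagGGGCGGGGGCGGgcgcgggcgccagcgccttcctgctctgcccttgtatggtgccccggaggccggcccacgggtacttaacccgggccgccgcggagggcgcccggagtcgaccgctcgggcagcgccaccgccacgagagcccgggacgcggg
DUSP23: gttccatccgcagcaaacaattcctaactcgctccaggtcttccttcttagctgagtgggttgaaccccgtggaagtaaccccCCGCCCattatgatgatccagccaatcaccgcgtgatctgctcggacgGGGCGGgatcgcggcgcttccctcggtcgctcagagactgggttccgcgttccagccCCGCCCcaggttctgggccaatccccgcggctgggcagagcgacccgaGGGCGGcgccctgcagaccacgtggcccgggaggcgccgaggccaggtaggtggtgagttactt
DUSP1: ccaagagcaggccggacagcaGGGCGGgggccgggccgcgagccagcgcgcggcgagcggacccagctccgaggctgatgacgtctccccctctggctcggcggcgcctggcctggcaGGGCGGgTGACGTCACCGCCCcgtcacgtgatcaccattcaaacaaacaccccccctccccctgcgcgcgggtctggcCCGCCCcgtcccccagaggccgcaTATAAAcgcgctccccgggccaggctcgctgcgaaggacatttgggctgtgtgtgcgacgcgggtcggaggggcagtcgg
DUSP2 held 3 GC boxes and DUSP23 held 4, with no match to the TATA box or to the cAMP response element. DUSP1 held a cAMP response element that starts at -125 and a TATA box at -30 from its start site, besides 4 GC boxes. GC boxes were matched in 70.2% of member windows and in 45% of all 35116 promoter windows, the cAMP response element in 3 member windows (DUSP1, DUSP8 and JUND) and in 1.85% of all, and the TATA box in 12.3% and 11.5%. These matches are letters in a window and say nothing of whether a factor bound there.

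The other nuclear MAP kinase phosphatases moved little. DUSP1 (MKP-1), which acts on p38, JNK and ERK, stood at 26.8, 24.8 and 26.5 CPM in wild-type and at 21.8, 19.1 and 22.6 CPM in knockout libraries. The groups did not overlap, and the log2 fold change was -0.30 (SE 0.07, adjusted p = 0.0102). Without knockout replicate 2 the adjusted p was 0.0510. DUSP4 (MKP-2), on chromosome 8, measured 5.27 ± 0.124 CPM in wild-type and 6.26 ± 0.401 CPM in knockout libraries (SD, n = 3), with no overlap but an adjusted p of 0.0606. DUSP5, which holds ERK in the nucleus, was 11.5 ± 0.797 and 11.6 ± 0.621 CPM.

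None of the 6 phosphatases of the cytoplasmic ERK class or of the JNK and p38 class was called by edgeR, where 31.8% of all genes were. DUSP6 (MKP-3), the ERK-specific feedback phosphatase, measured 0.883 ± 0.130 and 0.801 ± 0.240 CPM in wild-type and knockout (SD, n = 3), and its exons overlap an antisense gene, AC024909.2, by 1875 bases. DUSP7 was 46.2 ± 3.45 and 46.9 ± 1.63 CPM, and DUSP9 30.2 ± 3.75 and 26.6 ± 2.64 CPM. DUSP9 was called lower only when wild-type replicate 1 was left out (log2 fold change -0.27, adjusted p = 0.00741), and none of these 6 had an unadjusted p under 0.05 with all libraries. Of the phosphatases that act on JNK and p38, DUSP8 was 6.52 ± 1.08 and 7.68 ± 0.929 CPM, DUSP10 2.18 ± 0.145 and 2.17 ± 0.138 CPM, and DUSP16 51.3 ± 0.885 and 48.6 ± 1.77 CPM.

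Among the 14 atypical and other DUSP genes, many of which do not act on MAP kinases, 10 were tested, and 3 rose and 3 fell, 60% against 31.8% of all genes, with a median log2 fold change of -0.02. DUSP18 stood at 4.46, 5.29 and 4.09 CPM in wild-type and at 6.61, 6.17 and 7.33 CPM in knockout libraries (log2 fold change 0.54, adjusted p = 0.00505). DUSP22 (JKAP), which modulates JNK signalling, stood at 40.7, 42.8 and 42.5 against 50.2, 46.2 and 47.6 CPM (0.19, adjusted p = 0.0177). In both the knockout libraries were all above the wild-type libraries, and the exons of DUSP18 overlap SLC35E4 on the other strand by 1530 bases. DUSP14, a phosphatase of T cell signalling, stood at 26.7, 29 and 28.9 CPM in wild-type and at 22.3, 23.0 and 22.3 CPM in knockout libraries (-0.32, adjusted p = 0.00201), with no overlap. For DUSP15 the values were 1.2, 1.39 and 1.26 against 0.670, 0.951 and 0.939 CPM (-0.58, adjusted p = 0.0347), and for DUSP19 8.34, 6.03 and 7.40 against 6.06, 5.6 and 5.51 CPM (-0.34, adjusted p = 0.0498). The DUSP15 groups did not overlap and the DUSP19 groups did, and the calls were lost in 8 and 11 of 16 alternatives. The DUSP15 call ended without any 1 of wild-type replicates 2 and 3 and the 3 knockout libraries, and the DUSP19 call without any 1 library other than wild-type replicate 2. The DUSP22 call ended without knockout replicate 1 or 3. DUSP3 (VHR), the most abundant phosphatase of the set, was 123 ± 3.56 and 131 ± 4.85 CPM, and DUSP11, an RNA phosphatase, 38.7 ± 2.42 and 35.9 ± 1.46 CPM (SD, n = 3). DUSP12 was 38.6 ± 0.944 and 40.8 ± 1.5 CPM and DUSP28 5.68 ± 0.369 and 4.95 ± 0.112 CPM, and none of these 4 was called.

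**Figure D3:**
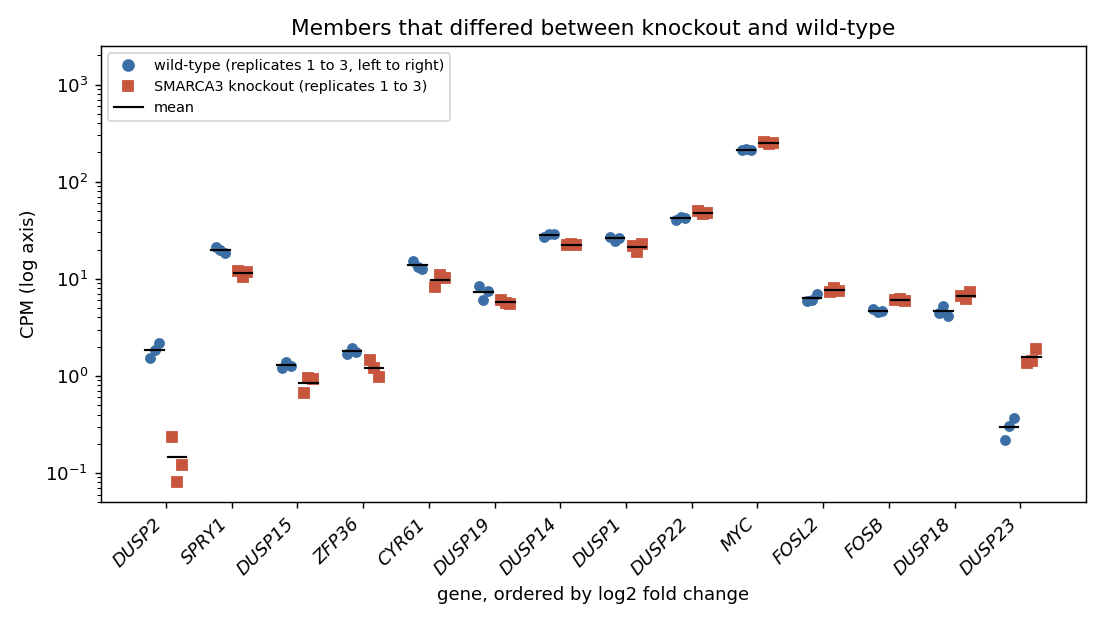
CPM (log y axis) of the 14 called members in each library, ordered on the x axis by log2 fold change; circles are wild-type and squares knockout replicates 1 to 3, and black lines are means. DUSP2 lies at 1.52 to 2.20 CPM in wild-type and at most at 0.233 CPM in knockout libraries, and of these 14 genes only DUSP19 has overlapping groups.

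Of the 5 tested Sprouty and SPRED genes, SPRY1 alone was called, 20% against 31.8% of all genes. SPRY1 stood at 21.2, 19.8 and 18.5 CPM in wild-type and at 11.9, 10.4 and 11.7 CPM in knockout libraries. All knockout values lay below all wild-type values (log2 fold change -0.81, SE 0.08, adjusted p = 2.94e-05). Its 40 neighbours on chromosome 4 had a median of -0.19, and with that median removed the log2 fold change was -0.62 (adjusted p = 0.000367). Its relative SPRY2 was 27.1 ± 1.88 and 28.3 ± 1.2 CPM in wild-type and knockout (SD, n = 3). SPRED1 was 18.04 ± 2.16 and 18.8 ± 0.478 CPM, SPRY4 0.764 ± 0.184 and 0.832 ± 0.320 CPM, and SPRED2 31.4 ± 0.793 and 28.5 ± 0.759 CPM with an adjusted p of 0.0752. Whether the change of SPRY1 differs from that of SPRY2 was not tested.

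Among the immediate early transcription factors the called changes were small. MYC, the growth regulator on chromosome 8, stood at 211, 215 and 214 CPM in wild-type and at 257, 242 and 250 CPM in knockout libraries. The groups did not overlap, and MYC rose by 0.22 on the log2 scale (SE 0.04, adjusted p = 0.00107), a call that held in all 16 alternatives. FOSB stood at 4.87, 4.57 and 4.69 CPM in wild-type and at 6.00, 6.14 and 5.85 CPM in knockout libraries (0.35, adjusted p = 0.0123), and FOSL2 at 5.93, 6.03 and 6.95 against 7.31, 8.07 and 7.45 CPM (0.27, adjusted p = 0.0471). Both encode FOS-family partners of JUN, and neither had overlapping groups. The FOSB call ended without knockout replicate 2 (adjusted p = 0.0508) and with DESeq2, and the FOSL2 call was lost in 9 alternatives, including without wild-type replicate 1 or 2 or any 1 knockout library. JUN itself was 121 ± 6.71 and 123 ± 12.1 CPM and JUND 27.9 ± 2.21 and 26.2 ± 0.834 CPM. JUNB ranged from 3.78 to 5.09 CPM in wild-type and from 4.59 to 8.04 CPM in knockout libraries, so the groups overlapped, and its exons overlap HOOK2 on the other strand by 259 bases. Without knockout replicate 2 JUNB was called higher (0.60, adjusted p = 0.0263), and without knockout replicate 1 its adjusted p was 0.415. FOSL1 was below 1 CPM in every library.

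SRF, the factor through which many of these genes respond, was 96.4 ± 6.21 and 103 ± 3.38 CPM in wild-type and knockout (SD, n = 3) and was called only without wild-type replicate 3. IER2 was 16.6 ± 0.842 and 18.5 ± 0.310 CPM, without overlap of the groups but with an adjusted p of 0.1, IER5 37.3 ± 1.64 and 38.3 ± 2.00 CPM, and IER3 2.77 ± 0.612 and 2.21 ± 0.0218 CPM. ZFP36 (tristetraprolin), which destabilises AU-rich mRNAs, stood at 1.69, 1.92 and 1.76 CPM in wild-type and at 1.46, 1.2 and 0.970 CPM in knockout libraries, with no overlap (-0.56, adjusted p = 0.0277). That call was lost in 6 alternatives, among them without wild-type replicate 2 and without knockout replicate 2 or 3. CYR61 (CCN1), a matricellular protein and target of SRF and of YAP, stood at 15.3, 13.3 and 12.5 CPM in wild-type and at 8.24, 11.0 and 10.3 CPM in knockout libraries. The groups did not overlap, and CYR61 was called in all 16 alternatives (log2 fold change -0.48, SE 0.11, adjusted p = 0.00782). Its relative CTGF (CCN2) was at 1.33 ± 0.198 and 1.12 ± 0.136 CPM, and was not called. The NR4A orphan nuclear receptors were not called either. NR4A1 stood at 6.34, 9.42 and 9.52 CPM in wild-type and ranged from 9.62 to 11.2 CPM in knockout libraries. Its log2 fold change of 0.33 (adjusted p = 0.101) was 0.17 (adjusted p = 0.162) without wild-type replicate 1. Without wild-type replicate 3 it was 0.43 (adjusted p = 0.0390). NR4A2 was 3.59 ± 0.156 and 3.67 ± 0.267 CPM, and NR4A3 2.57 ± 0.361 and 2.44 ± 0.137 CPM.

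EGR1 and FOS, the classic serum response genes, were not called, and in both wild-type replicate 1 stood above the other libraries. EGR1, a zinc finger transcription factor, stood at 43.0, 19.8 and 15.3 CPM in wild-type and at 16.4, 16.9 and 17.3 CPM in knockout libraries. Wild-type replicate 1 stood alone at 2.17 times the next wild-type library, and the knockout values lay inside the wild-type range. The fitted log2 fold change of -0.63 (SE 0.29, adjusted p = 0.128) became -0.05 (SE 0.09, adjusted p = 0.715) without wild-type replicate 1, and -0.90 (adjusted p = 0.00998) without wild-type replicate 3. FOS showed the same library pattern, with 12.1, 6.88 and 6.58 CPM in wild-type and 7.54, 5.62 and 7.18 CPM in knockout libraries, and its log2 fold change went from -0.34 (adjusted p = 0.261) to 0.02 (adjusted p = 0.927) without wild-type replicate 1. EGR2 and EGR3 stayed at 0.682 to 1.28 CPM in all libraries.

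The departure of each library from the mean of the other libraries of its group, on the log2(CPM + 0.5) scale, shows how far this went. Wild-type replicate 1 also differed most from its group over genes in general. The chi-square of counts over its degrees of freedom was 9.75 and 15.3 for its pairs with wild-type replicates 2 and 3. Between replicates 2 and 3 it was 4.28. In wild-type replicate 1 EGR1 stood 1.28 above the others, rank 2 in size of all 18061 tested genes, and FOS 0.80 above, rank 18. The other 44 members lay between -0.54 and 0.48 in that library. Of 43 other tested immediate early and early response genes, 0 lay over 0.5 above and 4 over 0.5 below the other wild-type libraries there, and their median departure was 0.02. Those 4, named after their values were seen, were ARC (-0.89), MAFK (-0.72), GADD45B (-0.67) and SIK1 (-0.59). ARC, a neuronal early gene, had 3.90 CPM against 7.47 and 7.87 CPM in wild-type replicates 2 and 3. With wild-type replicate 1 left out, 12 of the 14 member calls remained (DUSP19 and FOSL2 were lost), DUSP9, IER2 and IER3 were added, and 33.6% of all genes were called.

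**Figure D4:**
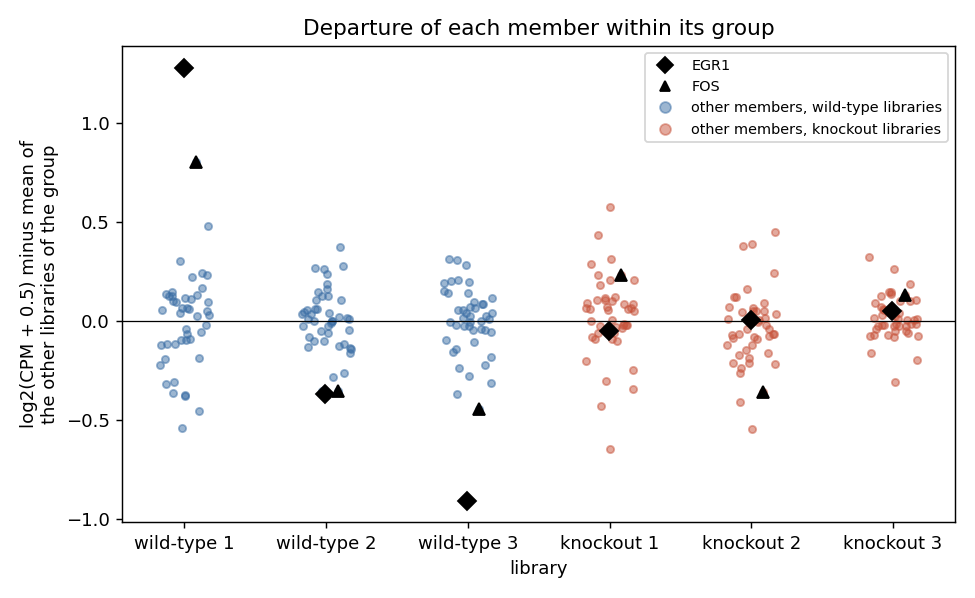
Departure of each tested member (y axis, log2(CPM + 0.5) minus the mean of the other libraries of the group) in each of the 6 libraries (x axis), with EGR1 as diamonds, FOS as triangles and the other 44 members as dots. EGR1 at 1.28 and FOS at 0.80 lie above all other members in wild-type replicate 1.

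The promoters of EGR1 and FOS are given since these genes carry this library difference. EGR1 is at chr5:138465229-138465528 and FOS at chr14:75278578-75278877, both on the plus strand of GRCh38.p14 and cut as above. Capitals mark the CArG box (the core of the serum response element, searched on both strands), the GC box and the TATA box.
EGR1: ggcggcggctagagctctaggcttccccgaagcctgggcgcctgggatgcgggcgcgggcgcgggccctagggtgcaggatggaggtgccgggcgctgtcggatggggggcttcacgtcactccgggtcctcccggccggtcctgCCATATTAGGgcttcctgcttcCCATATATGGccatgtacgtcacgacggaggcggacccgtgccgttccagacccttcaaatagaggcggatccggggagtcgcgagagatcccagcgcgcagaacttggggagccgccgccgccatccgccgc
FOS: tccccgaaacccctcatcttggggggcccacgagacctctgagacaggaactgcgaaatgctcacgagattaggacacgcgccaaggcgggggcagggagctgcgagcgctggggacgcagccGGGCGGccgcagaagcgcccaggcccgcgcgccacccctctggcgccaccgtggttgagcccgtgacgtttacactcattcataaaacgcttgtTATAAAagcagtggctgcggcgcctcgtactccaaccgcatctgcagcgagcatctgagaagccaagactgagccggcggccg
The EGR1 window held 2 CArG boxes, which start at -105 and -83 from the start site, and the FOS window none in these 300 bases, but a TATA box at -33 and a GC box at -127. CArG boxes were matched in 3 of the 57 member windows, those of EGR1, EGR2 and SRF, and in 1.29% of all promoter windows. Windows of FOSL2 and SPRED2 held the AP-1 element TGANTCA, which 7.71% of all windows hold.

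Several smaller member changes went with the genes around them. The 40 nearest expressed genes of the 46 tested members had median log2 fold changes between -0.32 and 0.33, over 0.1 in size for 16 members. DUSP18 on chromosome 22 (0.54) lay among neighbours with a median of 0.26, of which 30 were called higher and 0 lower, and DUSP14 on chromosome 17 (-0.32) among neighbours with a median of -0.17, of which 19 were lower and 0 higher. With the neighbour median removed, DUSP18 (0.28, adjusted p = 0.102), DUSP14 (-0.15, adjusted p = 0.0800), DUSP22 (0.09, adjusted p = 0.244) and DUSP19 (-0.18, adjusted p = 0.292) were no longer called. DUSP3, on chromosome 17 in a stretch with a median of 0.33 and 32 of 40 neighbours called higher, had a log2 fold change of 0.09 as fitted and -0.24 (adjusted p = 0.00255) after removal. DUSP4 and JUND were also called after removal (0.31 with adjusted p = 0.0252, and -0.23 with adjusted p = 0.0293), which left 13 members called, 5 higher and 8 lower, where 30.7% of all genes were called.

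**Figure D5:**
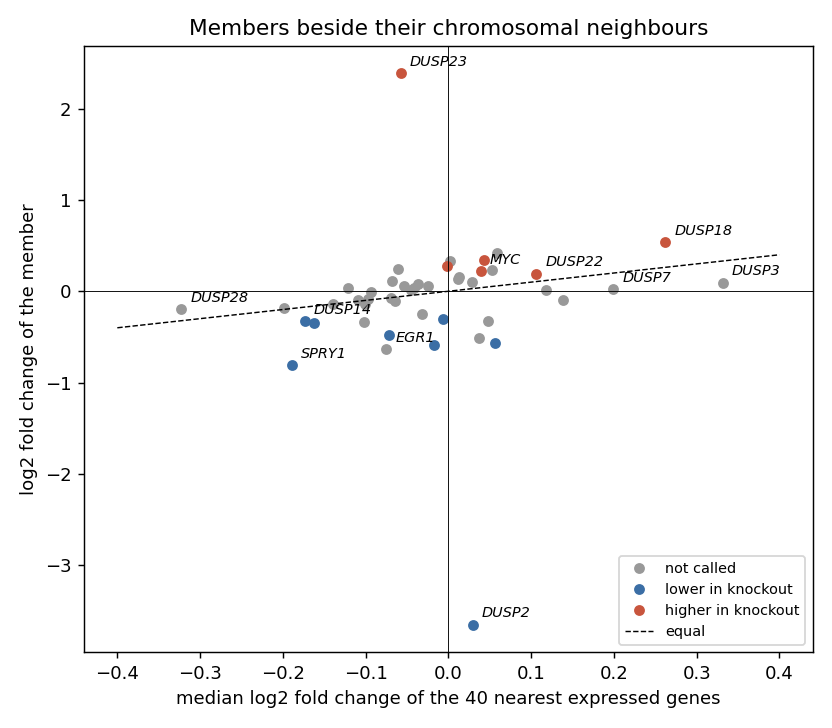
Log2 fold change of each tested member (y axis) against the median log2 fold change of its 40 nearest expressed genes (x axis), with the dashed line marking equality; red is called higher, blue lower and grey not called. DUSP2 and DUSP23 lie far from the line at neighbour medians of 0.03 and -0.06, while DUSP18 and DUSP14 lie on the side of their neighbours.

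Genes of the kinase pathways that these phosphatases and Sprouty proteins restrain were called in both directions. Of 36 genes of the ERK cascade, 7 were higher and 6 lower, 36.1% against 31.8% of all genes (median log2 fold change 0.01). All of these reached 1 CPM in wild-type or knockout, and of all genes that did so 36.1% were called. The growth factor receptor IGF1R was 92.3 ± 1.23 CPM in wild-type and rose to 141 ± 2.15 CPM (SD, n = 3), and the kinase RPS6KA2 rose by 0.32, the latter beside a neighbour median of 0.29. The ERK-binding protein PEA15 fell by 0.21 on the log2 scale. The summed level of the list was 3390 to 3422 CPM in wild-type and 3402 to 3427 CPM in knockout libraries. Of 26 JNK, p38 and ERK5 pathway kinases, 7 were higher and 1 lower (median 0.07). Called were 30.8%, against 31.8% of all genes and 36.1% of those reaching 1 CPM. The summed level of these 26 kinases was 1276 to 1290 CPM in wild-type and 1340 to 1344 CPM in knockout libraries. RPS6KA5 was at 0.43, MAPKAPK2 at 0.20 and the neuronal JNK gene MAPK10 at -0.79. MAPK10 lay low, at 1.18 ± 0.0670 CPM in wild-type and 0.677 ± 0.187 CPM in knockout libraries. The RPS6KA2 call ended with its neighbour median removed (adjusted p = 0.721). The MAPK10 call ended without knockout replicate 1 (adjusted p = 0.0737) or 3 (0.0515), and with DESeq2 (0.0886).

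Of 12 genes read as output of ERK outside the members, 2 were higher and 5 lower, 58.3% against 31.8% of all genes (median log2 fold change -0.08). CCND1 (cyclin D1) rose from 68.3 ± 1.81 to 92.0 ± 1.64 CPM (SD, n = 3), and IER5L was 0.72 higher with an adjusted p of 0.0499, a call lost without wild-type replicate 1 or 2 or knockout replicate 1 or 3. The lowered genes were the cytokine LIF (-1.32), the ETS factors ETV1 (-0.92), ETV4 (-0.67) and ETV5 (-0.44), and SH2B3, of which ETV4, ETV5 and SH2B3 were named after their values were seen. LIF lay low, at 0.922 ± 0.102 CPM in wild-type and 0.368 ± 0.127 CPM in knockout libraries. ETV4 lay at 1.62 ± 0.395 CPM in wild-type and ETV5 at 4.16 ± 0.492 CPM. Of 43 tested immediate early and early response genes outside the members, 8 were higher and 9 lower. That is 39.5% called against 31.8% of all genes, with a median of 0.00. This list shares LIF, IER5L and PHLDA1 with the ERK output genes, so the calls of LIF and IER5L count in both. ATF3, a stress-induced partner of JUN, rose from 52.4 ± 1.14 to 64.4 ± 1.28 CPM and the ZFP36 relative ZFP36L2 from 48.3 ± 1.59 to 58.3 ± 2.66 CPM. TIPARP was 28.8 ± 1.03 CPM in wild-type and fell to 15.5 ± 0.894 CPM, and RND3 was 53.6 ± 3.02 and fell to 34.4 ± 2.42 CPM. The neighbour medians were -0.63 for TIPARP and -0.03 for RND3, and with its median removed TIPARP was at -0.26 (adjusted p = 0.0135).

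Of 5 tested SRF cofactors and ternary complex factors, MKL1 (MRTFA), the actin-regulated cofactor of SRF, rose from 34.4 ± 4.36 to 47.0 ± 4.58 CPM and ELK4 from 65.4 ± 2.73 to 75.4 ± 1.86 CPM (SD, n = 3), and 0 fell, which is 40% called against 31.8% of all genes. MKL1 lies on chromosome 22 beside a neighbour median of 0.30, and its call ended once that was removed (adjusted p = 0.285). Of 19 tested cytoskeletal targets of SRF, 5 were higher, CNN2 (0.51) and MYH9 (0.36) with the smallest p. Another 4 were lower, among them TGFB1I1 (-0.97) and TPM4 (-0.22). The called share was 47.4% against 31.8% of all genes, with a median of 0.05. The neighbour median of MYH9 was 0.35, and with it removed MYH9 was at 0.01 (adjusted p = 0.927). Of 25 tested YAP and TEAD genes, 8 were higher and 4 lower, 48% called against 31.8% of all genes (median 0.10). CYR61 and CTGF are further YAP and TEAD genes. YAP1 rose by 0.36 and AMOTL2 by 0.45 on the log2 scale, whereas WWTR1 (TAZ), the companion of YAP, was 24.4 ± 2.16 CPM in wild-type and fell to 8.83 ± 0.256 CPM in knockout libraries, with a neighbour median of -0.51 (log2 fold change -1.47, or -0.95 with that median removed). RBMS3 was 2.04 ± 0.077 CPM and fell to 0.884 ± 0.0174 CPM.

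Of 9 tested partners of AP-1, 3 were higher and 1 lower. ATF4 rose from 1018 ± 13.5 to 1192 ± 48.9 CPM and JDP2 from 5.19 ± 0.745 to 6.71 ± 0.258 CPM (SD, n = 3), while FHL2 fell by 0.27 on the log2 scale. ATF4 turned to -0.10 (adjusted p = 0.0819) when its neighbour median of 0.32 was removed. Of 10 tested genes of the MYC network, MGA (0.29), MXI1 (0.19) and MLX were higher and 0 lower. Of 13 CREB and cAMP genes, the coactivators EP300 (0.39) and CREBBP (0.30) and CRTC1 were higher and CREM (-0.31) lower, with EP300 beside a neighbour median of 0.31. MLX and CRTC1 were named after their values were seen. The calls of MXI1 (adjusted p = 0.267), EP300 (0.138) and CREM (0.0690) ended with their neighbour medians removed, that of CREM also without wild-type replicate 3 or knockout replicate 1 or 2, and that of JDP2 without knockout replicate 2 or 3. These lists were called at 30% to 44.4% of their tested members, against 31.8% of all genes.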

How the data were processed

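Per the labels' protocols, poly(A) RNA went into stranded libraries that were read from both ends. The deposited values are the authors' raw counts, 1 whole number for each symbol and library. The submitters' processing notes name STAR 2.4, HTSeq 0.9.1, Trim Galore, DESeq2, Picard and hg38, without saying what each did. Which annotation release and strand setting were used is not given in the sources used here. Reads of genes that overlap on opposite strands, as 11 members do, may therefore not have been told apart.

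Counts were tested with edgeR 4.0.16 (R 4.3.3): filterByExpr left 18061 genes, libraries were scaled by TMM, and the two-sided quasi-likelihood F test was adjusted by Benjamini-Hochberg over all tested genes at 0.05. SE is the fitted log2 coefficient over the root of F. CPM uses TMM-scaled totals of tested genes. CPM per kb divides by merged GENCODE exon length, whatever the isoform used. Neighbour medians use the 40 nearest genes with at least 2 CPM. The counting intervals are exact Clopper-Pearson. No 2 replicates were alike within counting error (chi-square over its degrees of freedom from 3.60 to 15.3). The procedure was tested on simulated data.

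The members and lists were chosen with earlier results of these data known. All members are accounted for, and each list names up to 2 called genes per direction with the smallest p, except for a result that is not reported here. Alternatives were RLE, library size only, no filter, at least 1 CPM in 3 libraries, DESeq2 1.42.0, limma-voom (limma 3.58.1), robust dispersion, the replicate block, each library left out, a threshold of 0.01 and removal of the neighbour median.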

Additional observations from a re-analysis of the deposited data

How the results depend on the processing

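All 14 called members kept their direction in all 16 alternatives, and DUSP2, DUSP23, SPRY1, MYC and CYR61 kept an adjusted p under 0.05 in all of them. At a threshold of 0.01, 1421 genes were higher and 2056 lower, among them 3 members higher and 4 lower. DESeq2 called 5 members lower. Leaving out 1 library gave 4 to 8 members higher and 4 to 9 lower, 1850 to 2881 genes higher and 2309 to 3275 lower, and a log2 fold change of HLTF of -0.51 to -0.42. With the neighbour median removed, HLTF was at 0.017 (adjusted p = 0.831), DUSP3 at -0.24 and ATF4 at -0.10. FOS, at 0.018 without wild-type replicate 1, ran from -0.49 to 0.018 when 1 library was left out. The cause was not tested. With the replicate number as a block, 4 members were higher and 5 lower, and 1791 and 2441 of all genes. Deviations of same-numbered libraries correlated at -0.37, -0.04 and -0.09, and those of differently numbered libraries at -0.25 to 0.31. Deviations from a group mean of so few libraries depend on each other. These values therefore cannot show whether same-numbered libraries share a batch, and the labels do not say. With no filter on low counts 17.2% of genes were called, with EGR1, FOS, JUNB and NR4A1 added among the members. In the filtered fit without wild-type replicate 1, EGR1 was at -0.05 and FOS at 0.018. Depth limits DUSP2 in the knockout (3 to 8 counts per library) and the 6 untested members.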
